A study of Mus musculus with 12 samples.

Results

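The genes described here are those of the Fc receptor axis: the activating Fc gamma receptors Fcgr1, Fcgr3 and Fcgr4, the inhibitory receptor Fcgr2b, the neonatal Fc receptor Fcgrt, the signalling adaptors Fcer1g and Tyrobp, and the kinase Syk. They were taken by name, 8 genes of the 35944 in the files, and their values were summed over all their transcripts in each of 12 tumours. The data are bulk RNA sequencing of whole 4T1 tumours, a mouse mammary carcinoma, and not of sorted macrophages. Female BALB/c mice aged 6 to 8 weeks had received 100000 tumour cells under the skin, and from day 5 the tumours were injected at their edge every 2 days with 3 µg of extracellular vesicles from MS-1 cells, a mouse endothelial line. All vesicles had been loaded by electroporation with a microRNA mimic, which was cel-miR-67, a nematode sequence, in the ctrl group and miR-183-5p, miR-142-5p or miR-222-3p in the other groups, with 3 tumours each, collected on day 21. The ctrl tumours therefore also received vesicles, and no tumour without vesicles was analysed here. The labels do not say that each tumour came from its own mouse, so p-values measure the spread between these tumours.

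Fc receptors tie antibodies to the cells that act on them. Fcgr1, Fcgr3 and Fcgr4 bind the Fc part of IgG and signal through the Fc receptor gamma chain, encoded by Fcer1g, whose ITAM (a short tyrosine motif) recruits Syk once it is phosphorylated by Src family kinases. Fcgr2b carries an inhibitory motif in its own tail, recruits the lipid phosphatase encoded by Inpp5d and sets a threshold for the activating receptors. Tyrobp, also called DAP12, is a second ITAM adaptor that serves receptors such as Trem2, and Fcgrt pairs with B2m to carry IgG through acidic endosomes and save it from degradation. In tumours these genes are best known from macrophages, and Fcgr3, Fcgr4, Fcer1g and Tyrobp are also used by neutrophils and in part by natural killer cells. In a bulk tumour, fewer cells of a type and less RNA per cell cannot be told apart.

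The mature forms of the 3 microRNAs are shown first because their seeds (bases 2 to 8, in capitals) were searched in the genes. The sequences are the mouse entries of RefSeq on GRCm38.p6, at chr11:87756867-87756887 (plus strand), chr6:30169711-30169732 (minus strand) and chrX:19146901-19146923 (minus strand), and no 2 of them share a seed. They are the reference forms and not the delivered mimics; the miR-222-3p mimic, as the study lists it, was shorter at its 3′ end.
miR-142a-5p: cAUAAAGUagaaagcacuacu
miR-183-5p: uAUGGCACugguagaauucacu
miR-222-3p: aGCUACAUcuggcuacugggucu

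The longest annotated 3′ UTR of each of the 8 genes was searched for the 7 letters that pair with each seed. ACTTTAT, the match to miR-142a-5p, was in 0 of 8 and in 16.2% of the 14620 tested genes with a 3′ UTR. ATGTAGC, the match to miR-222-3p, was in 0 of 8 and in 11.02% of these genes. GTGCCAT, the match to miR-183-5p, was in 1 of 8, Fcgr1, and in 10.5% of these genes. The match in Fcgr1 lies in the exonic 3′ UTR of Fcgr1-201, starting at base 325 of 1367, at chr3:96283937-96283959 on the minus strand (GRCm38), with 8 bases shown on each side and the matching letters in capitals.
Fcgr1 3′ UTR: ggacagctGTGCCATcccctcac

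The 100 bases before the start site are shown for the 3 activating receptors, because all 3 hold the same run of letters close to it. The search was for GAGGAA and AGGAAG on both strands, purine-rich letters of the kind bound by ETS factors such as PU.1, the factor of macrophages and B cells; the motifs overlap in GAGGAAG. Capitals mark the letters of either motif or of its reverse complement. The stretches are from RefSeq, GRCm38.p6, at chr3:96293970-96294069 (minus strand, Fcgr1), chr1:171059404-171059503 (minus strand, Fcgr3) and chr1:171018826-171018925 (plus strand, Fcgr4).
Fcgr1: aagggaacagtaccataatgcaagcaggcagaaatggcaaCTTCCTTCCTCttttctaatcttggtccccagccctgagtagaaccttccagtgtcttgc
Fcgr3: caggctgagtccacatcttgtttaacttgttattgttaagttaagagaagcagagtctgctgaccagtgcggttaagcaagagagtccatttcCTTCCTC
Fcgr4: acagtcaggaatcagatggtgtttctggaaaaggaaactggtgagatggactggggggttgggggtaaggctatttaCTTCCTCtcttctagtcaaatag

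The run ended 50 bases before the start in Fcgr1, 17 bases before it in Fcgr4 and 1 base before the start shown in Fcgr3. Fcgr3 has another start, and there the run began 16 bases before it. Promoter windows of 300 bases were given for 7 of the 8 genes, without Tyrobp. These genes had 9 windows, as Fcgr3 and Syk have more than 1 start. A gene was counted if any of its windows matched, so the counts by gene are not like the shares of single windows. GAGGAA or its reverse complement was in windows of 4 of these 7 genes, Fcgr1, Fcgr3, Fcgr4 and Syk, and in 28.3% of 32851 windows of the same length. Syk matched at its second start only. Either motif was in windows of 5 of the 7, with Fcer1g added, and in 46.0% of all windows. A match of this kind describes the letters only.

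All 8 genes were well covered. The libraries held 20285968 to 27021401 estimated reads, and each gene had between 634 and 8053 of them in every tumour, so that all 8 passed the filter of at least 10 reads in at least 3 tumours. Levels are given as TPM, transcript abundances per length, scaled to the same total in every library, which can be compared between genes. In the ctrl tumours Tyrobp was the most abundant at 462 ± 43.5 TPM (SD, n = 3), which placed it at rank 297 of 21462 genes above 0. Fcer1g followed at 332 ± 63.0, Fcgr2b at 216 ± 69.1, Fcgr3 at 189 ± 18.5, Fcgr4 at 125 ± 6.65, Fcgr1 at 57.8 ± 3.26, Fcgrt at 51.7 ± 15.6 and Syk at 17.3 ± 4.90 TPM. Fcgr2b and Fcgr3 did not differ beyond their spread, and neither did Fcgr1 and Fcgrt. Tyrobp and Fcer1g, and Fcgr4 and Fcgr1, kept their order in every tumour: Tyrobp stood 1.22 to 1.62 times above Fcer1g, and Fcgr4 stood 1.98 to 2.86 times above Fcgr1.

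**Figure D1:**
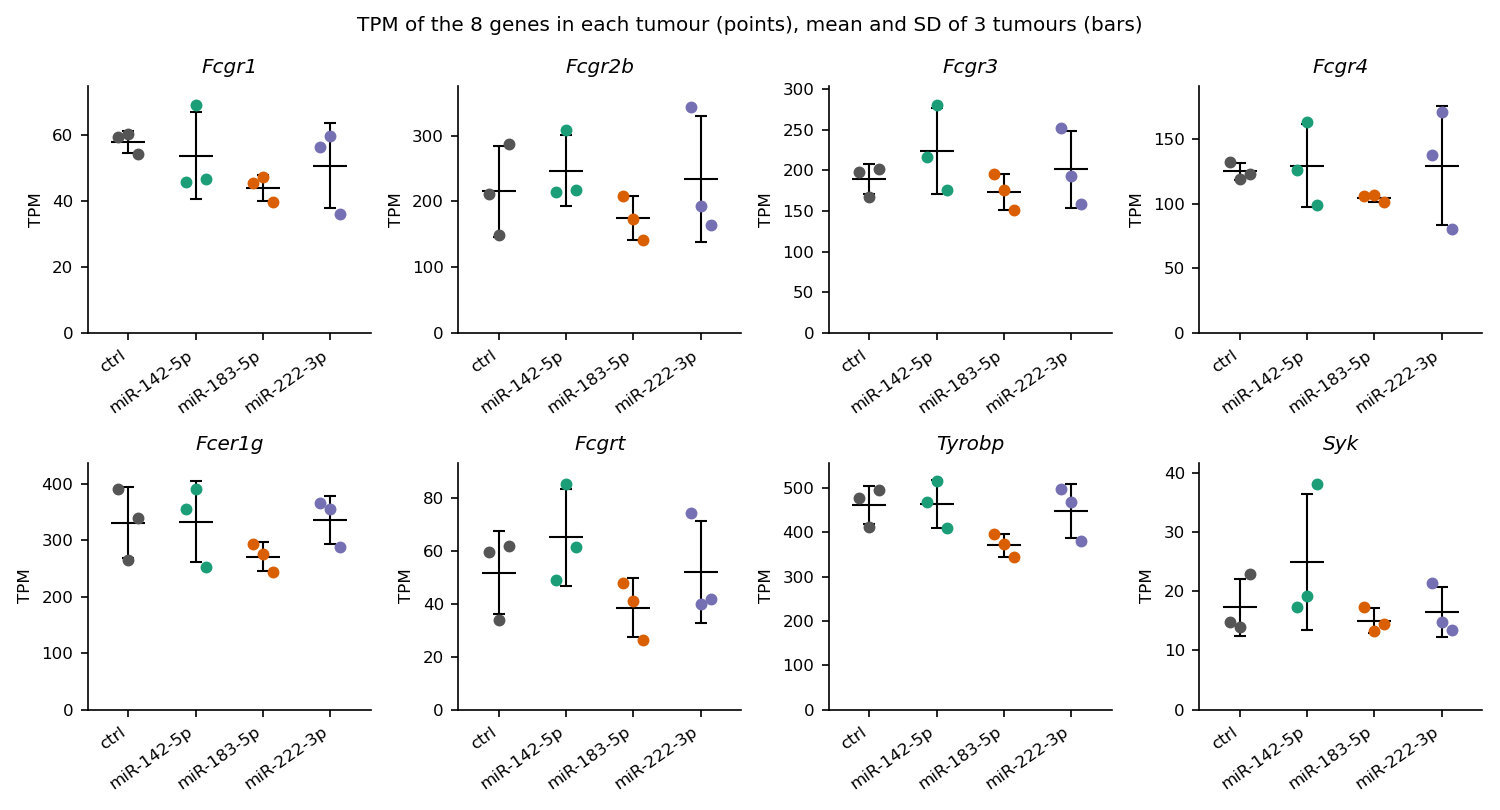
TPM of each of the 8 genes (vertical axes, each starting at 0) in the 4 groups; points are tumours, and bars are the mean and SD of 3 tumours. The miR-183-5p tumours of Tyrobp lie between 344 and 396 TPM, below the ctrl tumours at 413 to 495, while the groups overlap for most other genes; Syk has 1 point at 38.2 TPM, in a miR-142-5p tumour.

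There were 2 tumours that stood apart from the rest by RNA of other cells. The third miR-142-5p tumour had a summed level of 575 TPM over 6 B and plasma cell markers, against 2.19 to 7.80 in the others, and 157 TPM over 6 T cell markers, against 24.4 to 71.7. The third miR-183-5p tumour had 274 TPM over 4 skeletal muscle markers, against 7.50 to 14.4. The carcinoma markers were present throughout, at 1277 to 1892 TPM summed over 6 keratin and junction genes. Macrophage marker RNA (13 genes) summed to 1414 to 2076 TPM in the miR-183-5p tumours, 2037 to 2581 in ctrl, 2218 to 3166 in miR-142-5p and 1829 to 2722 in miR-222-3p. Neutrophil marker RNA (8 genes) summed to 2456 to 3479 TPM in miR-183-5p, 1528 to 2200 in ctrl, 1109 to 2167 in miR-142-5p and 1344 to 2597 in miR-222-3p.

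The first question was whether vesicles carrying each microRNA changed the Fc receptor axis relative to ctrl vesicles. None of the 8 genes passed an adjusted p of 0.05 in any of the 6 comparisons between groups, or in the test of any difference among the 4 groups (DESeq2 with Benjamini-Hochberg adjustment over all genes). edgeR and limma also called 0 of 8 in each comparison. Few genes passed at all: 0.00648% of 15438 tested genes for miR-142-5p against ctrl, 0% for miR-183-5p against ctrl, 0.0259% for miR-222-3p against ctrl, 0.0518% for miR-183-5p against the miR-142-5p tumours, 0.0324% for miR-183-5p against the miR-222-3p tumours, 0.0389% for miR-142-5p against the miR-222-3p tumours and 0.0583% for any difference.

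Direction was uneven between groups. The fitted difference was below 0 for all 8 genes in miR-183-5p against ctrl, with a median log2 fold change of -0.28, beside -0.01 over all tested genes. It was above 0 for 7 of 8 genes in miR-142-5p against ctrl, with a median of 0.14, and above 0 for 3 of 8 in miR-222-3p against ctrl, with a median of -0.01. The 3 comparisons share the ctrl tumours, so these counts are not independent of each other, and the 7 genes other than Syk vary together across tumours. At an unadjusted p under 0.05, 1 of 8 genes stood out in the miR-142-5p tumours (3.58% of all genes), 1 of 8 in the miR-183-5p tumours (3.21%) and 0 of 8 in miR-222-3p (2.31%).

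**Figure D2:**
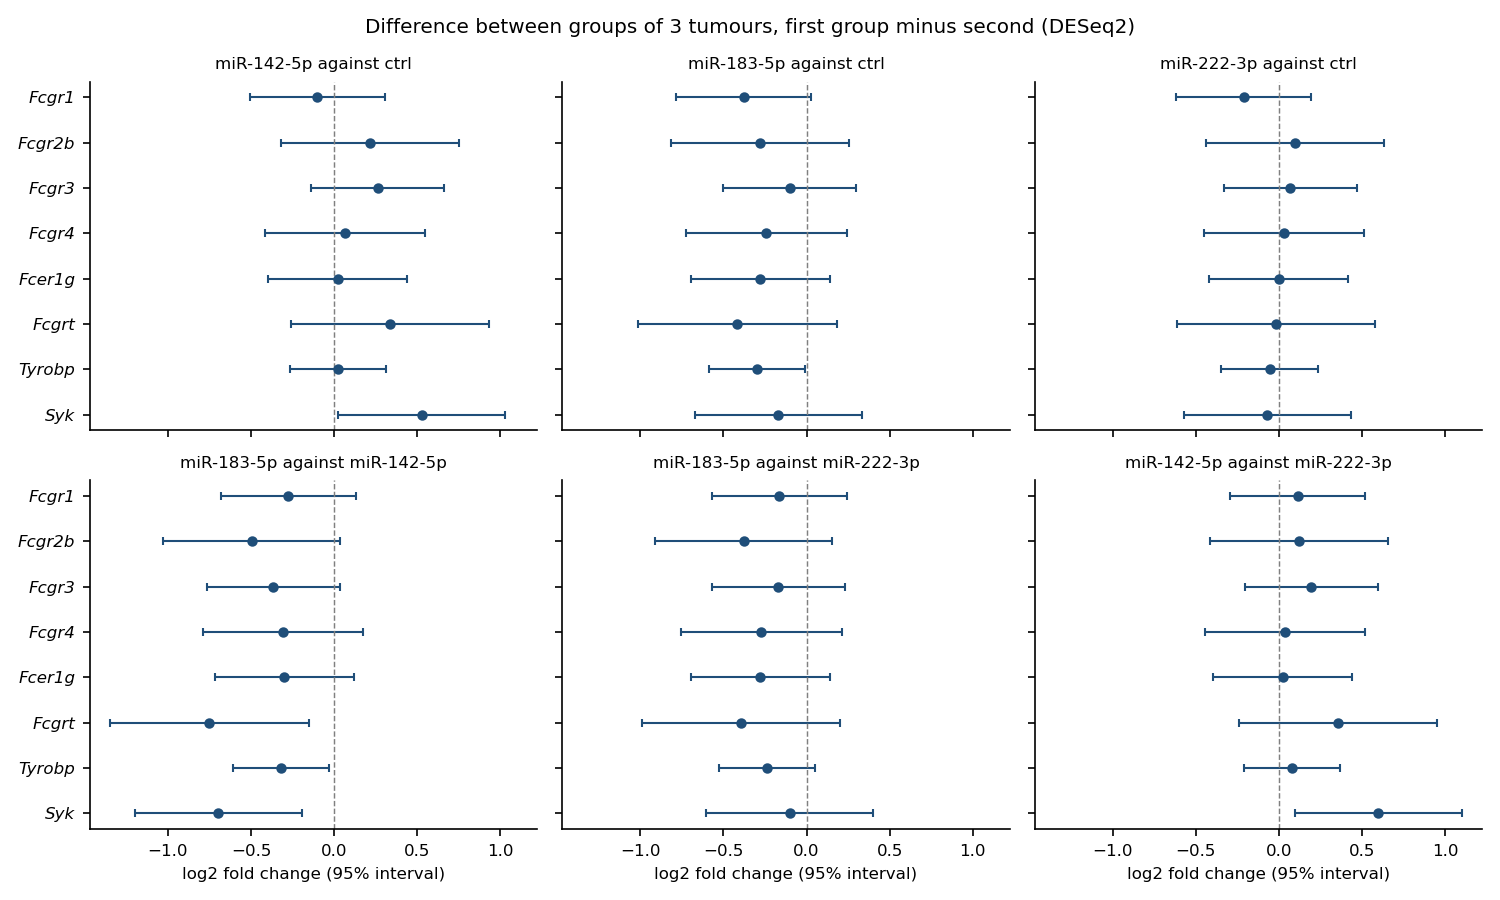
Log2 fold change of each gene (horizontal axes) with its 95% interval in the 6 comparisons between groups of 3 tumours, first group minus second. All 8 points lie left of 0 in each of the 3 comparisons with miR-183-5p as the first group, and most intervals include 0.

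Among the activating receptors, Fcgr1 encodes the high-affinity IgG receptor. Its level was 59.3, 60.1 and 54.1 TPM in the ctrl tumours, 45.3, 47.1 and 39.6 in the miR-183-5p group, 45.5, 68.8 and 46.5 in the miR-142-5p group and 56.3, 59.7 and 35.9 in the miR-222-3p group. All 3 miR-183-5p tumours were lower than every ctrl tumour. So were the miR-142-5p tumours at 45.5 and 46.5 and the miR-222-3p tumour at 35.9. The miR-142-5p tumour at 68.8 was above the ctrl range, and the miR-222-3p tumours at 56.3 and 59.7 were within it. Fcgr1 had a log2 fold change for miR-183-5p against ctrl of -0.38 (SE 0.21, 95% interval -0.78 to 0.03, unadjusted p = 0.0689 and adjusted p = 1, DESeq2). Fcgr1 is also the gene whose 3′ UTR holds the letters that pair with the miR-183-5p seed; no measurement here bears on binding at that match.

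Fcgr4, the mouse receptor for IgG2 subclasses on macrophages and neutrophils, stood at 132, 119 and 123 TPM in ctrl and at 106, 107 and 101 in miR-183-5p. These groups did not overlap, and the miR-183-5p tumours were the most alike of any group, with a coefficient of variation of 2.85%. The miR-142-5p tumours were at 126, 163 and 98.8 TPM and the miR-222-3p tumours at 137, 171 and 80.1, so that both groups held tumours above and below the whole ctrl range. Against ctrl, the log2 fold change of Fcgr4 was -0.24 (SE 0.25) in the miR-183-5p tumours, 0.07 (SE 0.25) in the miR-142-5p tumours and 0.03 (SE 0.25) in the miR-222-3p tumours. Each was smaller than its SE, which DESeq2 takes from a spread shared by the 4 groups.

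Fcgr3, a low-affinity receptor for IgG complexes, was at 198, 168 and 202 TPM in ctrl, 217, 280.1 and 175 in the miR-142-5p group, 195, 175 and 151.1 in the miR-183-5p group and 252, 193 and 158 in the miR-222-3p group. All groups overlapped. The largest difference from ctrl was the log2 fold change of 0.26 (SE 0.20) in miR-142-5p, with an unadjusted p of 0.197 (DESeq2).

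Fcgr2b, the inhibitory receptor, varied more from tumour to tumour than the activating receptors. Its levels were 211, 149 and 287 TPM in ctrl, 214, 309 and 218 in the miR-142-5p group, 208, 174 and 141 in the miR-183-5p group and 344, 194 and 164 in the miR-222-3p group. The ctrl tumours alone spanned 1.93-fold and the other groups lay largely within or near that span. Against ctrl, Fcgr2b had a log2 fold change of -0.28 (SE 0.27) in the miR-183-5p tumours, 0.22 (SE 0.27) in the miR-142-5p tumours and 0.10 (SE 0.27) in the miR-222-3p tumours.

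The ratio of activating to inhibitory receptor RNA, (Fcgr1 + Fcgr3 + Fcgr4) to Fcgr2b in TPM, was followed as a description of the balance. It was 1.84, 2.33 and 1.32 in the ctrl tumours, 1.81, 1.66 and 1.47 in the miR-142-5p group, 1.66, 1.89 and 2.07 in the miR-183-5p group and 1.30, 2.18 and 1.67 in the miR-222-3p group. The means, 1.83 ± 0.506, 1.65 ± 0.171, 1.88 ± 0.204 and 1.72 ± 0.446 (SD, n = 3), differed by less than the spread of the ctrl tumours. The activating receptors outweighed Fcgr2b in every tumour by this measure, which sums 3 genes against 1. The ratio of Fcgr3 alone to Fcgr2b was 0.934 ± 0.129 (SD, n = 12), from 0.703 to 1.13.

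Fcgr2b was read mainly from 3 transcripts. The protein-coding Fcgr2b-202 gave 60.8% of the gene's TPM on average, Fcgr2b-206, a processed transcript without an annotated coding part, gave 19.8% (15.3 to 24.3%), and the protein-coding Fcgr2b-201 gave 10.9%. All of them enter the gene's level and the ratios above. For the 2 coding forms, their coding parts differ by a single insert of 141 bases, or 47 codons, present in Fcgr2b-201. In the mouse, the form with the cytoplasmic insert is known from B cells and the form without it from myeloid cells. Fcgr2b-201 made up 14.5, 13.6 and 15.01% of the sum of both transcripts in ctrl, 13.6, 16.4 and 18.6% in the miR-142-5p group, 14.9, 13.3 and 13.2% in the miR-183-5p group and 16.4, 17.8 and 15.5% in the miR-222-3p group. The highest share was in the third miR-142-5p tumour, the one rich in B cell RNA, and the 3 miR-222-3p tumours were above the 3 ctrl tumours, which is given without a test. Fcgr2b and Fcgr3 are close relatives on chromosome 1: 13.4% of the 31-base words in the Fcgr3 transcripts, 233 words, also occur in Fcgr2b, so part of their reads is divided between them by estimation. Fcgr1, Fcer1g and Tyrobp shared no such word with another annotated gene.

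**Figure D3:**
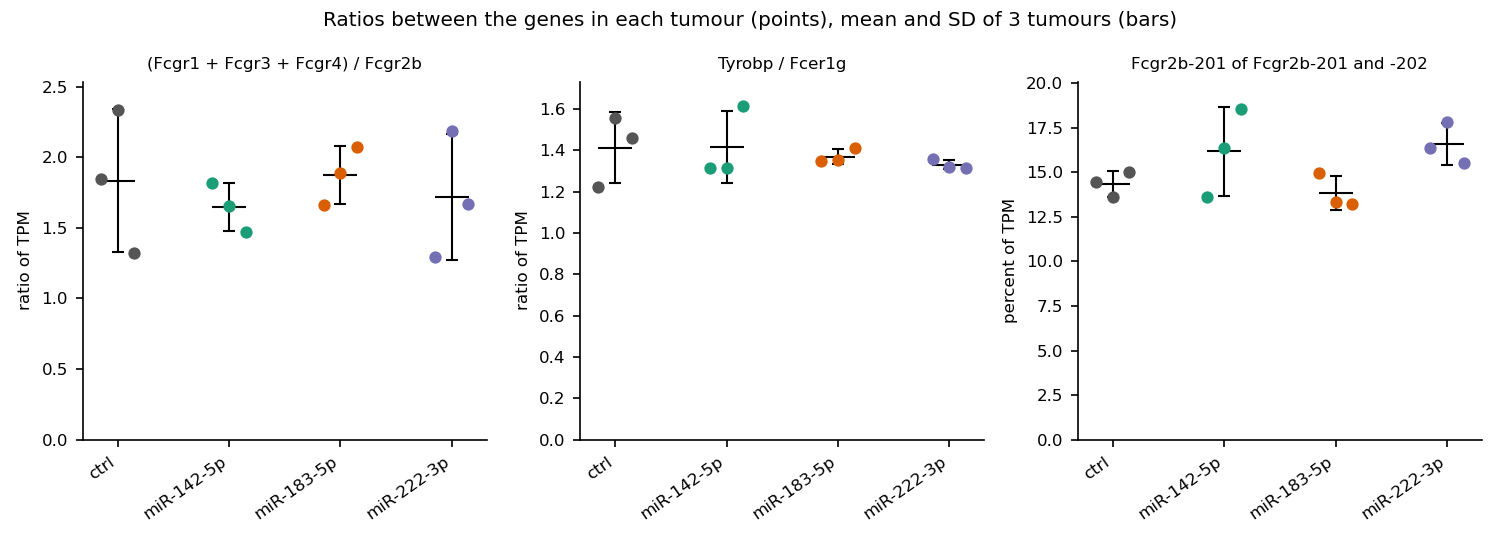
Ratio of activating to inhibitory receptor TPM (left), ratio of Tyrobp to Fcer1g TPM (middle) and share of Fcgr2b-201 in the TPM of Fcgr2b-201 and Fcgr2b-202 (right), by group; points are tumours, bars are the mean and SD of 3 tumours. The left ratio runs from 1.30 to 2.33 with all groups overlapping, and the right share is highest, at 18.6%, in a miR-142-5p tumour.

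The adaptors came next. Tyrobp was at 478, 413 and 495 TPM in ctrl, 396, 373 and 344 in the miR-183-5p group, 468, 516 and 409 in the miR-142-5p group and 497, 469 and 379 in the miR-222-3p group. Every miR-183-5p tumour was below every ctrl tumour. For Tyrobp the log2 fold change for miR-183-5p against ctrl was -0.30 (SE 0.15, 95% interval -0.59 to -0.01), a fold of 0.814, with an unadjusted p of 0.0446 and an adjusted p of 1 (DESeq2). It was 0.02 (SE 0.15) in the miR-142-5p tumours and -0.06 (SE 0.15) for miR-222-3p.

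Fcer1g was at 391, 265 and 339 TPM in ctrl, 294, 276 and 244 in the miR-183-5p group, 356, 392 and 253 in the miR-142-5p group and 366, 355 and 288 in the miR-222-3p group. One ctrl tumour lay as low as the miR-183-5p tumours, and the groups overlapped. With a log2 fold change for miR-183-5p against ctrl of -0.28 (SE 0.21, unadjusted p = 0.190, DESeq2), Fcer1g did not pass the test. Fcer1g to the summed activating receptors stood at 0.888 ± 0.120 in ctrl, 0.842 ± 0.00637 in the miR-183-5p group, 0.824 ± 0.0808 in the miR-142-5p group and 0.904 ± 0.127 in the miR-222-3p group (ratio of TPM, SD, n = 3). Fcer1g is also a chain of the IgE receptor, whose other chains were near 0 here: Fcer1a reached at most 0.490 TPM and Ms4a2 at most 0.300 TPM in any tumour.

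In normalised counts, 3 of the 8 genes did not overlap between miR-183-5p and ctrl, all lower in miR-183-5p: Fcgr1, Fcgr4 and Tyrobp. Over all tested genes, 4.77% were lower without overlap in that comparison. Beside these values, 10 of 13 macrophage markers were lower in miR-183-5p than in ctrl with a median log2 fold change of -0.41, and 8 of 8 neutrophil markers were higher with a median of 0.61, though none of either list passed the adjusted threshold. Their part in the Fc receptor values was not tested.

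Fcgrt, the neonatal Fc receptor, was the member that ranged most widely, 3.26-fold over the 12 tumours. It was at 59.6, 33.7 and 61.7 TPM in ctrl, 48.8, 85.1 and 61.3 in the miR-142-5p group, 47.9, 41.1 and 26.1 in the miR-183-5p group and 74.1, 39.9 and 41.9 in the miR-222-3p group. The lowest value was in the tumour rich in muscle RNA. Log2 fold changes against ctrl were 0.33 (SE 0.30), -0.42 (SE 0.30) and -0.02 (SE 0.30) in that order of microRNAs, with all groups overlapping ctrl. Its partner chain B2m, which also serves MHC class I, was far more abundant, at 4931 to 7023 TPM, so that B2m exceeded Fcgrt 61.4-fold to 243-fold.

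Syk, the kinase downstream of both adaptors, was at 14.9, 14.04 and 22.9 TPM in ctrl, 17.4, 19.3 and 38.2 in the miR-142-5p group, 17.3, 13.3 and 14.5 in the miR-183-5p group and 21.4, 14.8 and 13.5 in the miR-222-3p group. One tumour, the third miR-142-5p tumour, was far above the others. The log2 fold change for miR-142-5p against ctrl was 0.53 (SE 0.26, 95% interval 0.02 to 1.03, unadjusted p = 0.0398, adjusted p = 1, DESeq2). Without that tumour it was 0.16, with an unadjusted p of 0.466. Syk is also the kinase of the B cell receptor, and that tumour is the one rich in B cell RNA.

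The comparisons between the microRNA groups asked whether one cargo differed from another. Between the miR-183-5p and the miR-142-5p tumours all 8 differences were below 0, with a median log2 fold change of -0.34, beside -0.0027 over all tested genes. At an unadjusted p under 0.05, 3 of 8 genes stood out, beside 7.94% of all genes. Syk had a log2 fold change of -0.70 (SE 0.26, unadjusted p = 0.00646, adjusted p = 0.330, DESeq2), Fcgrt -0.75 (SE 0.30, unadjusted p = 0.0136, adjusted p = 0.427) and Tyrobp -0.32 (SE 0.15, unadjusted p = 0.0313, adjusted p = 0.550). Syk and Fcgrt did not overlap between these groups in normalised counts, 2 of 8, beside 6.44% of all genes lower without overlap. Both gaps were narrow in TPM: the highest miR-183-5p tumour had 17.3 of Syk and 47.9 of Fcgrt, and the lowest miR-142-5p tumour had 17.4 and 48.8.

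Syk depended on single tumours in this comparison. Without the third miR-142-5p tumour its log2 fold change was -0.33, with an unadjusted p of 0.131 (DESeq2). Without the first miR-142-5p tumour it was -0.86 and Syk passed the threshold, with an adjusted p of 0.0498 (DESeq2). This was the only call of any of the 8 genes under an alternative at that threshold. In that fit 416 of 14573 genes were called, beside 8 of 15438 with all tumours. Without both tumours that stood apart, Syk was at -0.30 and Fcgrt at -0.62, with unadjusted p of 0.222 and 0.0755. Other members did not follow Syk. Without the third miR-142-5p tumour alone, 2 of 3 activating receptors, Fcgr2b (-0.62), Fcgrt (-0.84) and 2 of 2 adaptors were lower at an unadjusted p under 0.05 (DESeq2). Over all genes 2.76% were lower in that fit. Without both tumours, 1 of 3 activating receptors and 2 of 2 adaptors were lower, beside 1.63% of all genes. Both fits were chosen after seeing the data.

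In the miR-183-5p tumours set against those given miR-222-3p all 8 differences were again below 0, with a median of -0.26, and 0 of 8 reached an unadjusted p of 0.05, beside 3.25% of all genes. Fcer1g and Tyrobp did not overlap in normalised counts, 2 of 8, beside 4.47% of all genes; in TPM both overlapped. Between the miR-142-5p and the miR-222-3p tumours all 8 differences were above 0, with a median of 0.11. Syk was the 1 gene of 8 at an unadjusted p under 0.05 (log2 fold change 0.60, SE 0.26, unadjusted p = 0.0198, adjusted p = 1, DESeq2), beside 3.62% of all genes, and without the third miR-142-5p tumour it was 0.23. Over the 4 groups at once Syk had the lowest p of the 8, 0.0246 unadjusted and 0.843 adjusted (DESeq2 likelihood ratio test), beside 4.74% of all genes under an unadjusted 0.05. These comparisons share tumours with those against ctrl.

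Apart from Syk, most pairs of the 8 genes varied together across tumours, and Syk followed some of the genes by rank. Over the 12 tumours, on log2(normalised count + 1), the median Pearson r of the 21 pairs without Syk was 0.75, from 0.39 to 0.94, and the median of the 7 pairs with Syk was 0.10. By Pearson's r, 17 of the 21 pairs had an adjusted permutation p under 0.05, and 0 of the 7 did. The pairs without Syk that did not pass set Fcgr1 or Fcgr4 against Fcgr2b or Fcgrt, with r from 0.39 to 0.49. Tyrobp and Fcer1g, the 2 adaptors, formed the closest pair with r = 0.94 and Spearman's rho = 0.94 (permutation p = 1e-05, the smallest the resamples can give, and 5e-05; adjusted over 28 pairs 0.000280 and 0.000933), with r = 0.94 without the 2 tumours farthest from the median and r = 0.97 after centring each group on its mean. Fcgr2b and Fcgrt had r = 0.92 and rho = 0.92 (permutation p = 4e-05 and 9e-05, adjusted 0.000560 and 0.000933), with r = 0.89 without the farthest 2 and 0.91 after centring. Fcgr1 and Fcgr4 had r = 0.88 and rho = 0.92 (permutation p = 0.000290 and 0.0001, adjusted 0.00252 and 0.000933), with r = 0.78 and 0.91 in the same checks. Every value of a tumour comes from one library, so pairs share its cell makeup. Fcgr2b and Syk had r = 0.48 and rho = 0.78 over 12 tumours (permutation p = 0.115 and 0.00463, adjusted 0.154 and 0.0131). Fcgrt and Syk had r = 0.55 and rho = 0.76 (permutation p = 0.0695 and 0.00629, adjusted 0.108 and 0.0147). In the 10 tumours without the 2 that stood apart, r with Syk was 0.90 for Fcgr2b and 0.77 for Fcgrt. The lowest there was 0.18, for Fcgr1.

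**Figure D4:**
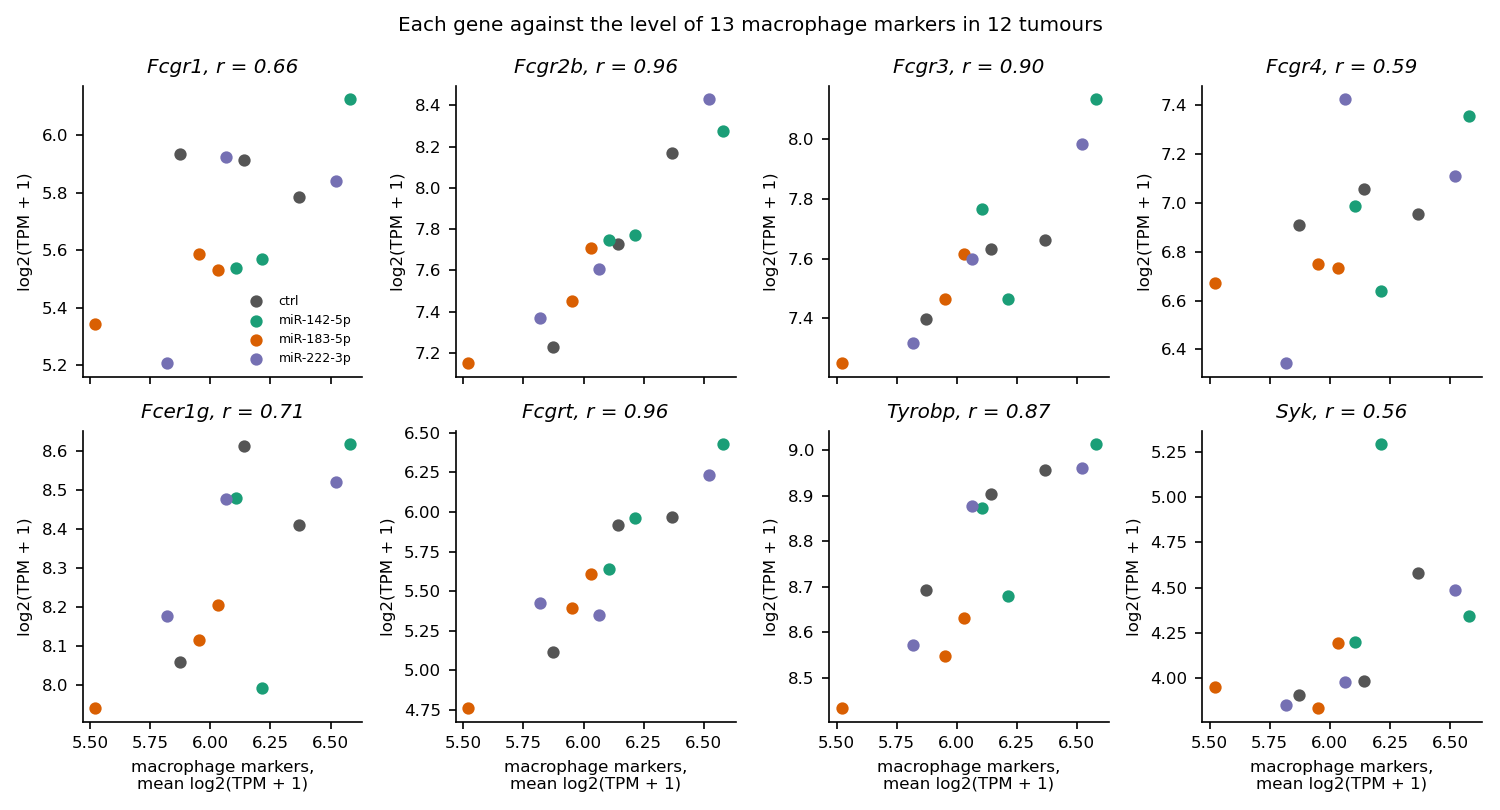
Each gene's log2(TPM + 1) (vertical axes) against the mean log2(TPM + 1) of 13 macrophage markers (horizontal axes) in 12 tumours, coloured by group, with Pearson's r above each panel. Fcgr2b and Fcgrt follow the markers most closely, with r of 0.96 each, and the Syk panel has 1 tumour of miR-142-5p far above the rest.

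The level of macrophage marker RNA was set against each member, 16 relations in all with the neutrophil markers, each with a permutation test of 100000 resamples. Fcgr2b had r = 0.96 and rho = 0.97 with the macrophage markers (permutation p = 1e-05, the smallest the resamples can give, and 2e-05, adjusted 8e-05 and 0.000320), and r was 0.97 without the 2 farthest tumours. Fcgrt had r = 0.96 and rho = 0.93 (permutation p = 1e-05 and 7e-05, adjusted 8e-05 and 0.000560), and 0.90 without the farthest. Fcgr3 had r = 0.90 and rho = 0.86 (permutation p = 0.000110 and 0.000620, adjusted 0.000480 and 0.00248), and 0.82 without the farthest. Tyrobp had r = 0.87 and rho = 0.87 (permutation p = 0.000120 and 0.000390, adjusted 0.000480 and 0.00208), and 0.76 without the farthest. These 4 also passed after centring on group means, with r between 0.84 and 0.96 in an exact permutation within groups of 1296 arrangements. The relation was thus seen within groups, and it was not tested between the group means.

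The other activating receptors and Fcer1g followed the macrophage markers less closely. Fcer1g had r = 0.71 and rho = 0.70 (permutation p = 0.00888 and 0.0143, adjusted 0.0274 and 0.0327), but r was 0.51 without the 2 farthest tumours, and after centring, where r was 0.64, the adjusted p was 0.138. Fcgr1 had r = 0.66 and rho = 0.53 (permutation p = 0.0197 and 0.0791, adjusted 0.0450 and 0.115), and r fell to 0.39 without the 2 farthest, on which the relation rests. Fcgr4 had r = 0.59 and rho = 0.60 (permutation p = 0.0411 and 0.0435, adjusted 0.0658 and 0.0773). Syk had r = 0.56 and rho = 0.83 (permutation p = 0.0618 and 0.00143, adjusted 0.0899 and 0.00458), and without the third miR-142-5p tumour r was 0.79 with an adjusted p of 0.00684.

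Against the neutrophil markers all 8 genes had r below 0. Fcgr1 was the only one past the threshold, with r = -0.71 and rho = -0.78 (permutation p = 0.0103 and 0.00386, adjusted 0.0274 and 0.0103); r was -0.64 without the 2 farthest tumours and -0.78 after centring, where the adjusted p was 0.0765. Fcgr4 had r = -0.62 and rho = -0.56 (permutation p = 0.0299 and 0.0619, adjusted 0.0599 and 0.0990). The neutrophil and macrophage levels are shares of one library.

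The genes whose levels were most like each member over the 12 tumours were found among 11334 protein-coding genes, by Pearson's r on log2(normalised count + 1); the values describe likeness and were not tested. Fcgrt was closest to Mrc1, the mannose receptor of macrophages, with r = 0.97, then Apoe and Maf with r = 0.95 each. Fcgr2b was closest to the chemokine gene Ccl8, to Sirpa and to the protease gene Lgmn, with r = 0.96 each. Tyrobp was closest to the complement gene C1qb with r = 0.96, then Fcer1g at 0.94 and Dnhd1 at 0.93. Fcer1g was closest to Tyrobp at 0.94, then Metap1d at 0.93 and Anpep at 0.92. Fcgr3 was closest to Cd300c2 at 0.96, then Gm2a and Hebp1 at 0.91 each. Fcgr1 was closest to Slamf8 at 0.94, then Sectm1a and the guanylate-binding protein gene Gbp8 at 0.91 each. Fcgr4 was closest to Cyp4v3 at 0.93, then Fcgr1 at 0.88 and Sirpb1c at 0.87. Mrc1 and C1qb are among the macrophage markers used above.

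Syk had other neighbours. It was closest to Cd22, an inhibitory receptor of B cells, with r = 0.97, to Blnk, the B cell linker that Syk phosphorylates, with r = 0.96, and to Txndc16 with r = 0.95; in the 10 tumours without the 2 that stood apart these were 0.95, 0.91 and 0.85. Blnk was the only gene of the fixed pathway lists to pass an adjusted p of 0.05. It stood at 2.99, 4.34 and 27.2 TPM in the miR-142-5p group and at 2.38, 1.42 and 1.32 in the miR-183-5p group, with ctrl at 2.45, 1.70 and 4.21 and miR-222-3p at 4.44, 2.27 and 2.33. For miR-183-5p against the miR-142-5p tumours, Blnk had a log2 fold change of -2.68 (SE 0.61, adjusted p = 0.0270, DESeq2). Without the third miR-142-5p tumour it was -1.14 with an adjusted p of 0.639, and edgeR gave an adjusted p of 0.545. In all, 13 of 15 alternatives lost the call, most of them within DESeq2 (adjusted p 0.0611 to 1), among them TMM factors, no count filter, no length offset, the replicate block and each miR-183-5p tumour left out. The call stood without the first or the second miR-142-5p tumour. All 15 had a difference below 0.

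**Figure D5:**
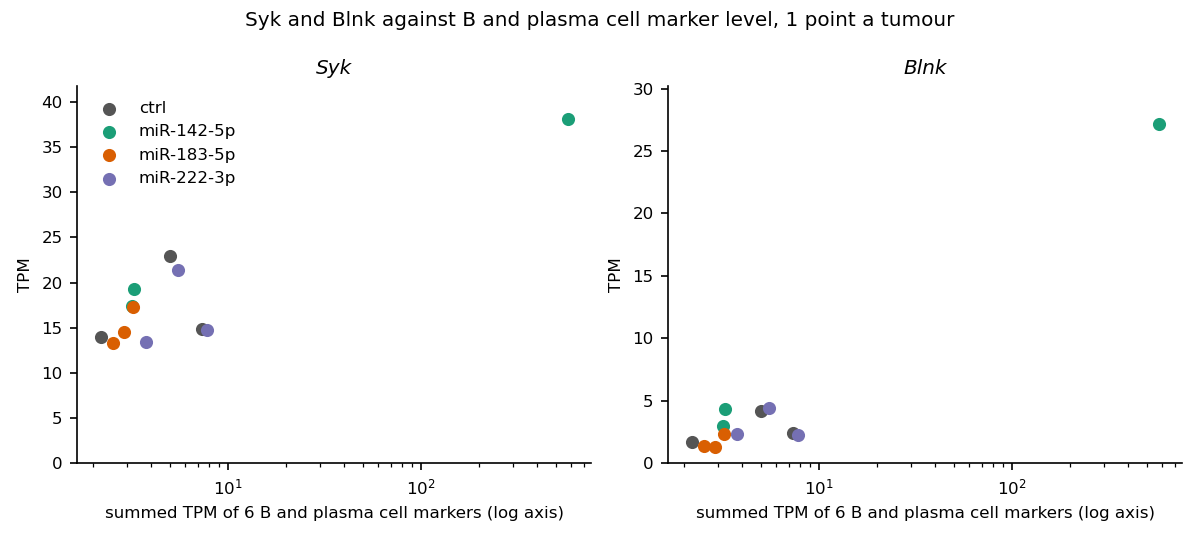
TPM of Syk (left) and Blnk (right), from 0, against the summed TPM of 6 B and plasma cell markers on a log axis, 1 point a tumour, coloured by group. In both panels 1 miR-142-5p tumour stands alone at 575 TPM of marker RNA, with 38.2 TPM of Syk and 27.2 TPM of Blnk.

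RNA of the antibody genes was scarce except in that tumour. Antibody protein, the ligand of the receptors, was not measured. Ighg1, the IgG1 heavy chain, was at 411 TPM in the third miR-142-5p tumour and at 0.226 to 2.58 TPM in the others. The 10 genes of the immunoglobulin list, constant regions and the joining chain gene Jchain, summed to 2220 TPM there and to 22.7 to 109 elsewhere. In the ctrl tumours the most abundant were Igkc, the kappa light chain, at 23.9 TPM and Ighm at 15.97. Of 7 genes of this list that passed the count filter, DESeq2 gave a p for 3 and set aside 4, Ighg1, Ighg2c, Igkc and Jchain, for an outlying count. None of the 3 passed the adjusted threshold. Igha, the IgA heavy chain, had log2 fold changes against ctrl of -1.45 (SE 0.54, unadjusted p = 0.00659, DESeq2) in the miR-183-5p tumours and -1.24 (SE 0.53) in the miR-142-5p tumours. In miR-142-5p against ctrl all 3 had an unadjusted p under 0.05 (3.58% of all genes), 2 higher, with Ighm, and 1 lower, Igha. Ighm was at 185 TPM in the third miR-142-5p tumour and at 10.6 and 17.5 in the others of that group. Without the third tumour 0 of 7 had such a p. BALB/c mice carry Ighg2a where the reference strain has Ighg2c, so the level of IgG2a/c was not read. Of 14 other Fc receptor genes, 7 passed the count filter, 5 received a p and none was called; besides B2m, the cytosolic antibody receptor Trim21 led at 36.0 TPM in ctrl, and the lowest p against ctrl was that of the receptor-like Fcrls, at a log2 fold change of -0.77 (SE 0.46) in miR-183-5p.

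The receptors that pair with Fcer1g or Tyrobp were all 22 tested and none was called in any comparison. The C-type lectins Clec4n (Dectin-2) and Clec7a (Dectin-1) were the most abundant in ctrl, at 98.9 and 60.1 TPM, with log2 fold changes of -0.17 (SE 0.18) and -0.28 (SE 0.28) in miR-183-5p against ctrl. The list's median log2 fold change against ctrl was -0.03 in the miR-183-5p tumours and 0.06 in both of the other groups, beside a median of -0.29 for the 2 adaptors in miR-183-5p. Siglech, a receptor of plasmacytoid dendritic cells, and Pilrb1 had the lowest p against ctrl, with log2 fold changes of 1.90 (SE 0.82) in miR-142-5p and 0.44 (SE 0.27) in miR-222-3p. In miR-142-5p against ctrl Siglech was the 1 of 22 at an unadjusted p under 0.05 (3.58% of all genes, DESeq2). Without the third miR-142-5p tumour 0 of 22 were.

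Downstream of the ITAM, 32 kinases and effectors were tested. In miR-142-5p against ctrl 28 of 32 were above 0 with a median of 0.13, in miR-183-5p 26 of 32 were below 0 with a median of -0.13, and in miR-222-3p the median was -0.01. In the miR-183-5p against the miR-142-5p tumours 14 of 32 were lower at an unadjusted p under 0.05, beside 4.85% of all genes, and 1, Blnk, passed the adjusted threshold. The third miR-142-5p tumour was high in some of these genes: beside Blnk, the kinase gene Btk was at 22.3 TPM there and at 8.66 and 8.89 in the other miR-142-5p tumours. Without it, an alternative chosen after seeing the data, 10 of 32 were lower (2.76% of all genes), and 23 of 32 were above 0 in miR-142-5p against ctrl with a median of 0.05. Without the third miR-183-5p tumour as well, 3 of 32 were lower (1.63% of all genes). T cell marker RNA moved with these values: 6 of 6 T cell markers were above 0 in miR-142-5p against ctrl, with a median log2 fold change of 0.97, and 0.24 without the third tumour. Of 6 dendritic cell markers 5 were above 0, with medians of 0.53 and 0.23. None of either list was called, and their part in the result was not tested. Cyba, a subunit of the phagocyte oxidase, was the most abundant at 337 TPM in ctrl, with a log2 fold change of -0.18 (SE 0.15) in miR-183-5p; the kinase gene Prkcd followed at 177 TPM, at 0.04 (SE 0.12). The transcription factor gene Nfatc1 had the lowest p against ctrl, in miR-142-5p, with a log2 fold change of 0.49 (SE 0.14, unadjusted p = 0.000356, adjusted p = 0.449, DESeq2).

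Of the 24 phosphatases, ubiquitin ligases and inhibitory receptors that restrain ITAM signals, none was called. The inhibitory receptor gene Lilrb4a led at 205 TPM in ctrl and the kinase gene Csk followed at 152 TPM, with log2 fold changes of -0.06 (SE 0.22) and 0.13 (SE 0.21) in miR-183-5p against ctrl. The adaptor genes Dok3 and Dok2, which restrain immune receptor signals, had the lowest p against ctrl, with log2 fold changes of 0.60 (SE 0.19, unadjusted p = 0.00152, adjusted p = 0.650, DESeq2) and 0.40 (SE 0.15, unadjusted p = 0.00890) in miR-142-5p. The highest Dok3 value, 33.5 TPM, was in the tumour rich in B cell RNA. In the miR-183-5p against the miR-142-5p tumours 7 of 24 were lower at an unadjusted p under 0.05, beside 4.85% of all genes, with a list median of -0.36. Without the third miR-142-5p tumour 5 of 24 were lower, beside 2.76% of all genes in that fit, with a median of -0.17. Without the third miR-183-5p tumour as well, 4 of 24 were lower, beside 1.63% of all genes, with a median of -0.17.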

How the data were processed

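RNA of 12 tumours was sequenced by the authors as stranded paired-end mRNA libraries and quantified with Salmon against mouse transcripts (GRCm38; the methods and the file names give different Ensembl releases). The deposited files hold estimated counts per transcript, TPM per transcript, which the authors scaled to the same total in each library, and effective lengths. Transcripts were matched by identifier to GENCODE M21, which placed 116710 of 118783 in 35944 genes; the unmatched rest held 0.633 to 0.671% of reads and was left out. The estimated counts were summed by gene, rounded and fitted in DESeq2 1.42.0 over all 4 groups with an offset for effective length, after a filter of at least 10 reads in at least 3 libraries, which kept 15485 genes, of which 15438 received an adjusted p, the rest having a count that DESeq2 took as outlying. Wald tests were two-sided, with Benjamini-Hochberg adjustment over all genes. edgeR 4.0.16, limma 3.58.1 on log2(TPM + 1), other filters and tumours left out were alternatives, and the scripts were tested on simulated data. Named genes were the 8 members; of each pathway list, those past the threshold, the 2 highest in ctrl TPM and the 2 with the lowest p against ctrl; and the 3 genes most like each member. Cd22, Btk, Ighg1, Jchain, Fcer1a, Ms4a2 and Ighg2c are named outside this rule only where the text says what they show. The members and lists were chosen with earlier results of these data known. No amino acid sequence was used here.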

Additional observations from a re-analysis of the deposited data

Results flagged for a closer look

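Blnk differed between 2 of the microRNA groups in the test reported here, a call that 13 of 15 alternatives lost. Its log2 fold change for miR-183-5p against the miR-142-5p tumours was -2.68 (adjusted p = 0.0270, DESeq2), lower in 3 of 3 miR-183-5p tumours than in every miR-142-5p tumour, and it was 2.01 for miR-142-5p and -0.68 for miR-183-5p against ctrl, neither past the threshold. Across the alternatives that lost the call the adjusted p was 0.0611 to 1. The value was -1.14 without the third miR-142-5p tumour, which held 27.2 TPM of Blnk and 575 TPM of B and plasma cell marker RNA. The part of that marker RNA in the difference was not tested.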

How the results depend on the processing

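None of the 8 genes was called in any comparison under edgeR, TMM factors, other count filters, no length offset, only the 2 groups compared, protein-coding genes, limma or an adjusted p of 0.1. Leaving out 1 tumour gave 0 to 1 calls for miR-183-5p against the miR-142-5p tumours and 0 elsewhere. The call was Syk, without the first miR-142-5p tumour, where 416 of 14573 genes were called. No pairing of the tumours by replicate number was seen. Residuals of same-numbered tumours had a median r of -0.087 (-0.44 to 0.22), beside 0.027 (-0.26 to 0.43) for differently numbered ones. The replicate block gave 0 calls in every comparison. Leaving out the third miR-142-5p tumour and the third miR-183-5p tumour, chosen after seeing the data, also gave 0. Of the 16 relations with marker levels 7 passed; 4 passed on normalised counts, 4 after centring on group means, and 4 to 11 with 1 tumour left out, the fewest without the second miR-142-5p tumour, the third miR-183-5p tumour or the first miR-222-3p tumour and the most without the third miR-142-5p tumour.

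Fold changes that turned sign had a size of at most 0.215 on the log2 scale with all tumours, and none was called; the cause was not tested. With 1 tumour left out, log2 fold changes for miR-142-5p against ctrl ran from -0.33 to 0.034 for Fcgr1, -0.0021 to 0.41 for Fcgr2b, -0.14 to 0.26 for Fcgr4, -0.13 to 0.23 for Fcer1g and -0.070 to 0.15 for Tyrobp. For miR-222-3p against ctrl they ran from -0.23 to 0.30 for Fcgr2b, -0.075 to 0.18 for Fcgr3, -0.24 to 0.26 for Fcgr4, -0.16 to 0.21 for Fcer1g, -0.30 to 0.17 for Fcgrt, -0.15 to 0.033 for Tyrobp and -0.24 to 0.13 for Syk. Syk ran from -0.31 to 0.029 for miR-183-5p against ctrl and from -0.20 to 0.075 against the miR-222-3p tumours. For miR-142-5p against the miR-222-3p tumours they ran from -0.11 to 0.26 for Fcgr1, -0.080 to 0.44 for Fcgr2b, -0.19 to 0.30 for Fcgr4, -0.11 to 0.22 for Fcer1g and -0.0043 to 0.20 for Tyrobp.

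Other settings that turned a sign were few. For miR-222-3p against ctrl, the block gave -0.020 for Fcgr4 and 0.0061 for Fcer1g, limma gave -0.015 for Fcgr4, 0.030 for Fcer1g and 0.00045 for Fcgrt, and 50 reads in every library gave 0.0059 for Fcer1g. For miR-142-5p, limma gave -0.029 for Fcer1g against miR-222-3p, and Fcgr1 against ctrl was 0.033 without both tumours that stood apart. On normalised counts the activating-to-inhibitory ratio was 1.64 in ctrl, 1.66 in the miR-183-5p group, 1.45 in the miR-142-5p group and 1.51 in the miR-222-3p group. With 3 tumours a group the standard errors of the 8 genes were 0.15 to 0.30 on the log2 scale, and their differences, from -0.75 to 0.60, did not pass adjustment over all genes.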
